A study of Mus musculus with 8 samples.

Results

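The data cover 10 genes of secreted Wnt signalling in isolated mouse pancreatic islets: the ligand genes Wnt4, Wnt5a and Wnt5b and the secreted antagonist genes Sfrp1, Sfrp2, Sfrp5, Frzb, Dkk2, Dkk3 and Wif1. They were taken by name from 17097 genes with 1 value per array, and 16 probe sets represent them. A gene with several probe sets was represented by that of highest mean. The members were selected on the values of Sfrp5 in wild-type islets, where it was higher with 4-phenylbutyrate (PBA), so the effect of PBA in wild-type islets is described here without a test for every member. Total RNA of islets was hybridised to 8 arrays, 2 in each of 4 groups: untreated wild type, PBA-treated wild type, untreated hIAPP transgenic and PBA-treated hIAPP transgenic. All mice were 20 weeks old when islets were taken. Every sample, those of wild-type genotype included, is labelled with FVB/N-Tg(Ins2-IAPP)RFHSoel/J as its strain. In the transgenic mice an insulin promoter drives human islet amyloid polypeptide, an amyloid-forming hormone, in beta cells. The treated mice had received PBA, a chemical chaperone that also inhibits histone deacetylases, at 1 g/kg/day in water for 12 weeks from the age of 8 weeks. The transgenic groups are 1 line, and the labels do not say whether an array holds 1 animal or a pool, so the p-values reflect only the spread among these arrays, which may be technical.

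Wnt proteins are secreted lipid-modified ligands that bind Frizzled receptors, alone or together with Lrp co-receptors, Ror kinases or Ryk. In the canonical branch the signal stabilises beta-catenin, which acts with Tcf and Lef factors on target genes, whereas Wnt5a in many settings acts without beta-catenin. Secreted frizzled-related proteins, Frzb among them, carry a Frizzled-like domain and bind Wnt proteins outside the cell, Wif1 also binds Wnt proteins, and Dickkopf proteins such as Dkk2 bind the Lrp co-receptors. Dkk3 is the divergent member of the Dickkopf family. In islets, Wnt4 is known as a ligand of mature beta cells.

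Upstream sequences are given for the 3 members whose main probe sets lay well above background on all arrays. They are the 250 bases before the annotated start in RefSeq (GRCm38.p6), 5′ to 3′ on the gene's strand, where 7 of the 10 members had an entry. Capitals mark the GC box GGGCGG or its reverse complement, with overlapping matches counted separately. Sfrp5 is from chr19:42202253-42202502, minus strand. Frzb is from chr2:80447397-80447646, minus strand. Wnt4 is from chr4:137277385-137277634, plus strand.
Sfrp5: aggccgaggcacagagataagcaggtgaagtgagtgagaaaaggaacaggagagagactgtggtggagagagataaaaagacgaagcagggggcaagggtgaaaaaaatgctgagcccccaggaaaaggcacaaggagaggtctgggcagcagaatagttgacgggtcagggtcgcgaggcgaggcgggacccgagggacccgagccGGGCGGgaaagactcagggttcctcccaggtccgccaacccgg
Frzb: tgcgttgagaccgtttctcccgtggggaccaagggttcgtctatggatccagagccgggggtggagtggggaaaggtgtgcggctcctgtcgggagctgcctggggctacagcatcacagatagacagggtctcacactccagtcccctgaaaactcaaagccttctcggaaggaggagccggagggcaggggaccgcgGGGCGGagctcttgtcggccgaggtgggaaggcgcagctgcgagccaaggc
Wnt4: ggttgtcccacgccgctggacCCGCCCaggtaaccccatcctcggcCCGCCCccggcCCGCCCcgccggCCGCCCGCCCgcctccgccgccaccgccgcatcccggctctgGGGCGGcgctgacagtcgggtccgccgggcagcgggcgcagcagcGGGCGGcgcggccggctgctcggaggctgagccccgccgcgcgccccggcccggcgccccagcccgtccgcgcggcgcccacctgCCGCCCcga
The Sfrp5 and Frzb windows held 1 GC box each and the Wnt4 window 8. Of 32851 windows of this length in the table, 32.7% held at least 1. The Tcf/Lef core CTTTGAT or CTTTGAA, searched on both strands, was in none of these 3 windows and in 7.48% of all windows. The Wnt4 window had 44 CpG dinucleotides, against 13 in that of Sfrp5 and 16 in that of Frzb, with a median of 6 over all windows.

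Values are RMA values on the log2 scale, so a difference of 1 is a doubling. The non-specific control probe sets had a 95th percentile of 4.68, which is used here as the background level. Arrays of 1 group correlated at 0.993 to 0.994 across genes, and arrays of different groups at 0.972 to 0.994. PBA-treated wild type 1 stood apart in its spiked-in hybridisation controls, whose median was 7.10 there and 9.80 to 10.20 on the other 7 arrays. The median over all genes was 5.9 on both untreated hIAPP arrays and 5.7 on the other 6, so that centring each array on it shifts every difference that involves untreated hIAPP islets by 0.20. All 15 measured beta-cell markers were above background on every array, with list medians of 10.60 to 11.20. The acinar list had medians of 9.0 to 12.50 over 18 genes, of which 0 to 1 were at or below background on each array. The arrays hold RNA of whole islets, so fewer cells of a type and less RNA per cell cannot be told apart.

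Of the 10 members, 5 were above background on at least 2 arrays. Sfrp5, Frzb and Wnt4 were above it on all 8 arrays, Sfrp1 on 4 and Dkk3 on 3. Dkk2 was above it on 1 array, and Sfrp2, Wif1, Wnt5a and Wnt5b on none. A difference reported for those 5 is a difference between levels near background.

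**Figure D1:**
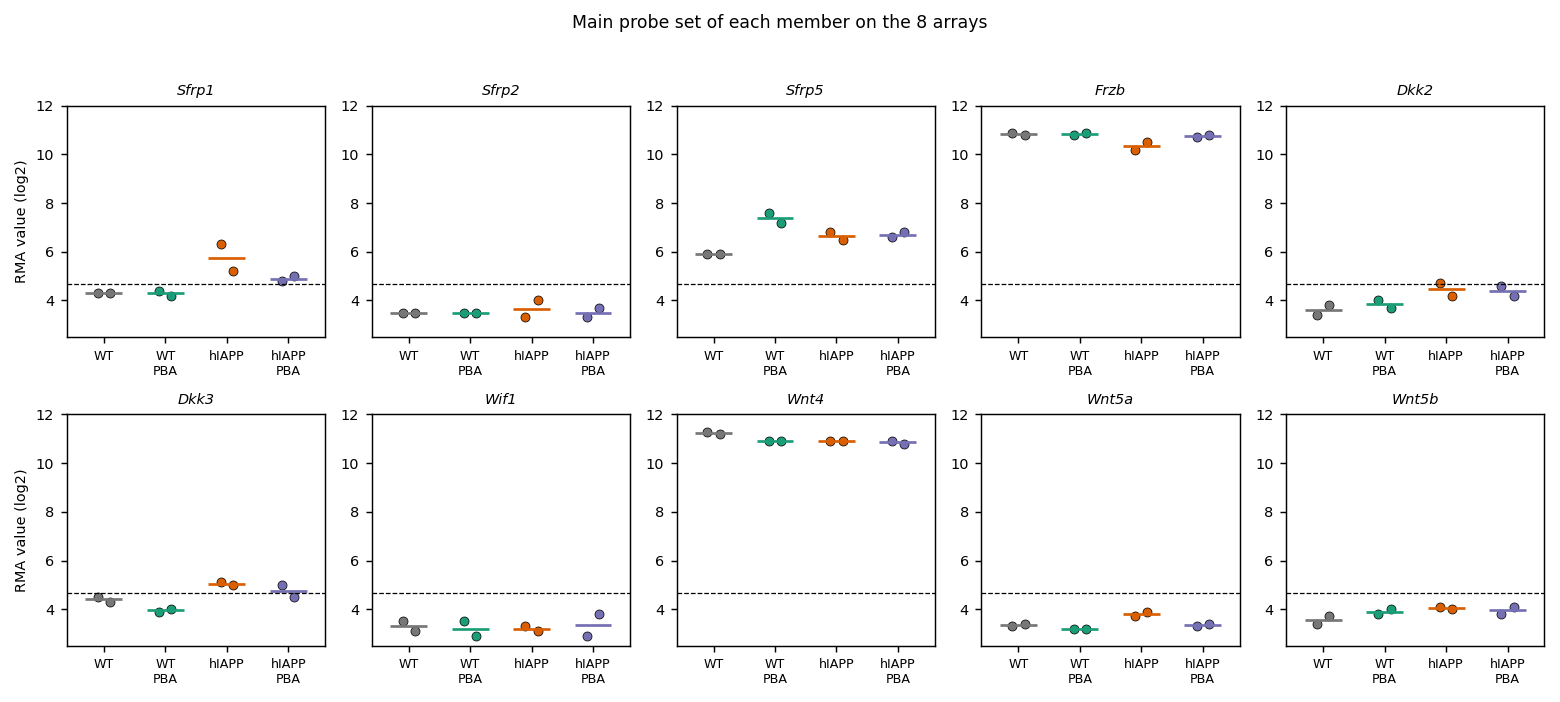
RMA value (log2) of the main probe set of each of the 10 genes on each array, by group; points are arrays, bars are means of 2 arrays, and the dashed line is the background level of 4.68. Sfrp5 is lowest in untreated wild-type islets at 5.9 on both arrays, Frzb and Wnt4 lie between 10.2 and 11.3 on every array, and Sfrp2, Wif1, Wnt5a and Wnt5b lie below the line throughout.

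Sfrp5, a secreted frizzled-related protein gene, was at 5.9 and 5.9 in untreated wild-type islets. It was at 7.6 and 7.2 in PBA-treated wild-type islets. It was at 6.8 and 6.5 in untreated hIAPP islets and at 6.6 and 6.8 in PBA-treated hIAPP islets. The order of the 4 groups was therefore untreated wild type, then the 2 hIAPP groups, whose arrays overlapped, then PBA-treated wild type, and no other neighbours in that order overlapped. The difference with PBA in wild-type islets, for which the set was chosen, was 1.5 (SE 0.17, n = 2 each), or 2.83-fold. It was 1.30 without PBA-treated wild type 1, the array that stood apart in the hybridisation controls. Between untreated groups Sfrp5 was 0.75 (SE 0.17) higher in hIAPP islets, and under PBA it was 0.70 (SE 0.17) lower in hIAPP islets. Both values share arrays with the comparison behind the choice of the gene, so they carry no test.

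The response of Sfrp5 to PBA in hIAPP islets, as a difference of means, rests on arrays the choice did not use. It was 0.05 (SE 0.17, 95% interval -0.34 to 0.44) and did not pass (limma with Benjamini-Hochberg adjustment over all genes, adjusted p = 0.8752). The SE, interval and p-value come from a fit of all arrays, so their variance includes the wild-type arrays behind the choice. The test is therefore not independent of the choice. The difference between these PBA responses, -1.45 in hIAPP minus wild type, contains the comparison behind the choice and was not tested.

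The second Sfrp5 probe set read near background. It was at 4.3 and 4.4 in untreated wild type, 4.8 and 5.5 in PBA-treated wild type, 4.5 and 4.1 in untreated hIAPP, and 4.9 and 4.6 in PBA-treated hIAPP islets. It was thus higher with PBA in wild-type islets as well, by 0.80, without overlap between arrays. The probe sets disagreed elsewhere. Between untreated groups the second was 0.05 lower in hIAPP islets, with overlapping arrays, and 0.45 higher with PBA in hIAPP islets, without overlap. Averaging both probe sets gave a difference of 1.15 with PBA in wild-type islets.

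Among the marker lists, the acinar list was at a median of 12.35 and 10.80 in untreated and 12.10 and 10.90 in PBA-treated wild-type islets. Those groups overlapped. The beta-cell list was at 11.0 and 10.90 and at 11.10 and 11.20, without overlap, and the macrophage list at 6.50 on both arrays and at 5.90 and 6.10. Of 15 macrophage markers 13 were lower with PBA without overlap and 1 was higher. With the acinar median of each array as a covariate the Sfrp5 difference was 1.5. Acinar medians overlapped between these groups, so that fit cannot show the acinar part. The part of the acinar, beta-cell and macrophage lists in the Sfrp5 difference was not tested.

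The genes most like Sfrp5 over the 8 arrays, among 2174 genes that spanned at least 1 log2 unit, were Fads2, Insig1 and Aard. Their Pearson correlations with it were 0.965, 0.924 and 0.919, given as a description over arrays that fall into 4 groups. Fads2, a fatty acid desaturase gene, was at 5.5 and 5.6 in untreated and 7.0 and 6.4 in PBA-treated wild-type islets, and at 5.9 to 6.3 on the 4 hIAPP arrays. Insig1, an endoplasmic reticulum gene of sterol sensing, was at 8.7 and 8.8 and at 9.7 and 9.7 in the same wild-type groups, and at 9.0 to 9.4 in hIAPP islets. In all 3 genes both PBA-treated wild-type arrays were the highest of the 8 and both untreated wild-type arrays were among the lowest 3. The 3 genes were picked for their likeness to Sfrp5, so this shared order is not separate evidence.

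**Figure D2:**
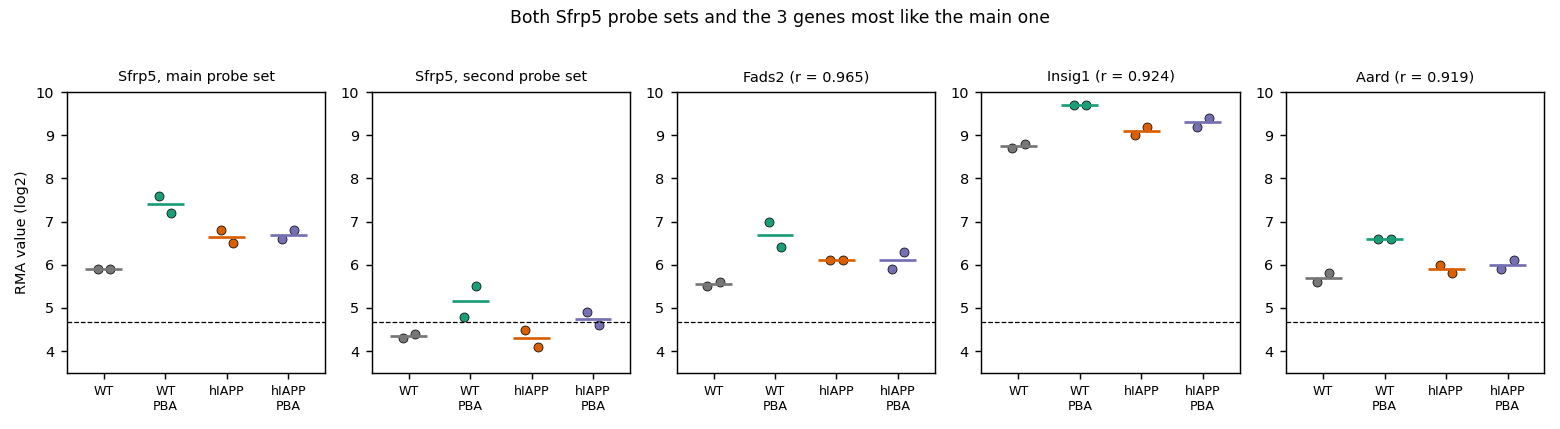
RMA value (log2) by group for the main and the second Sfrp5 probe set and for Fads2, Insig1 and Aard; points are arrays, bars are means of 2 arrays, the dashed line is the background of 4.68, and r is Pearson's correlation with the main Sfrp5 probe set over 8 arrays. PBA-treated wild-type arrays are highest in each of the 3 genes and in the main probe set, at 7.6 and 7.2 for Sfrp5, and the second probe set runs near the dashed line.

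The comparison of untreated hIAPP with untreated wild-type islets asks what the transgene changed without treatment. Sfrp1 and Wnt5a rose and Frzb fell, 3 of the 9 members tested, where 11.0% of all genes were called (7.77% higher, 3.19% lower). The median difference of the 9 was 0.45, against -0.05 over all genes. Arrays did not overlap for 7 members, 5 of them higher and 2 lower, as in 46.0% of all genes (20.9% higher, 25.2% lower). With arrays centred on their median, 1 member was higher (Sfrp1) and 2 were lower (Frzb and Wnt4), and over all genes 1083 were higher and 3264 lower in place of 1329 and 545. The 4 arrays of these groups alone gave 484 calls over all genes in place of 1874. With only the 4 arrays of these groups none of the members passed (limma), and without either untreated wild-type array or either PBA-treated wild-type array the count was 0 as well.

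Sfrp1, a frizzled-related antagonist that fibroblasts also secrete, was at 4.3 and 4.3 in untreated wild-type islets and at 6.3 and 5.2 in untreated hIAPP islets. The groups did not overlap, and the wild-type level lay within background. The log2 fold change was 1.45 (SE 0.31, limma adjusted p = 0.0262). It was 0.90 without untreated hIAPP 1 and 2.0 without untreated hIAPP 2, and the adjusted p was 6.5e-04 to 0.1898 over 17 alternatives, of which 9 kept the call. In PBA-treated islets Sfrp1 was at 4.4 and 4.2 in wild type and at 4.8 and 5.0 in hIAPP mice. Only the hIAPP arrays were above background, and the treated hIAPP arrays lay between those of the other groups.

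Stellate cell and fibroblast markers moved with Sfrp1, and so did other lists. In untreated hIAPP islets 13 of 15 macrophage and 9 of 14 endothelial markers rose, none falling, and with PBA 13 and 10 fell. Of 18 measured stellate cell and fibroblast markers, 15 rose in untreated hIAPP islets. Their median was 8.90 there on both arrays. It was 6.30 and 6.0 in untreated wild type, 6.20 and 5.95 in PBA-treated wild type, and 7.10 and 7.20 in PBA-treated hIAPP islets. Their summed signal was 14.07 to 14.20 (log2) in untreated hIAPP, 12.86 to 13.05 in PBA-treated hIAPP and 12.24 to 12.60 in wild-type islets. From 2 to 5 of the 18 were at or below background on each array. The part of these lists in the Sfrp1 result was not tested. The genes most like Sfrp1 over the 8 arrays were Kcne4 (r = 0.991), S100a13 (0.982) and Gpr34 (0.980).

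Frzb, a frizzled-related protein gene, was at 10.9 and 10.8 in untreated wild-type islets and at 10.8 and 10.9 in PBA-treated wild-type islets. It was at 10.2 and 10.5 in untreated hIAPP and at 10.7 and 10.8 in PBA-treated hIAPP islets. Untreated hIAPP was thus the lowest group, without overlap, and the other 3 groups overlapped or touched. The fall was -0.50 (SE 0.13, limma adjusted p = 0.0482), close to the threshold. Over 17 alternatives the change was -0.70 to -0.35 (adjusted p 5.6e-04 to 0.2113) and 6 kept the call. Of the 8 fits without 1 array only that without untreated hIAPP 2 kept the call, and without untreated hIAPP 1 the change was -0.35. The second probe set of Frzb fell alongside, from 9.7 and 9.6 to 8.8 and 9.2, a difference of -0.65 without overlap. It also stayed below wild type under PBA, at 9.4 and 9.5 against 9.8 and 9.7, where the main probe set overlapped. Beta-cell markers moved the same way, 4 of 15 lower and none higher in untreated hIAPP islets, with medians of 10.60 on both arrays against 11.0 and 10.90 in untreated wild type. Their summed signal was 15.20 and 15.29 (log2) against 15.46 and 15.53, none of the 15 was at or below background on any array, and their part in the Frzb result was not tested.

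Wnt5a, a ligand of the branch without beta-catenin, was at 3.3 and 3.4 in untreated wild-type and at 3.7 and 3.9 in untreated hIAPP islets (0.45, SE 0.11, limma adjusted p = 0.0412). All of these values lie below background, and so do those of its second probe set, which were at 3.0 and 3.2 and at 3.4 and 3.2. The call held in 2 of 16 alternatives (adjusted p 0.0296 to 0.1745), and with arrays centred the change was 0.25. The other 6 tested members did not pass. Wnt4 was at 11.3 and 11.2 in untreated wild-type and at 10.9 and 10.9 in untreated hIAPP islets, a difference of -0.35 (SE 0.10, limma adjusted p = 0.0617), and its second probe set differed by -0.35 as well. The Wnt4 arrays did not overlap, and with arrays centred it was at -0.55 and passed. Dkk2 (0.85, SE 0.23), Dkk3 (0.65, SE 0.17) and Wnt5b (0.50, SE 0.15) were higher without overlap, at limma adjusted p of 0.0601, 0.0547 and 0.0898. The second Dkk3 probe set differed by 0.45 without overlap, and that of Wnt5b by 0.15 with overlap, all below background. Sfrp2 (0.15) and Wif1 (-0.10) overlapped between groups.

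**Figure D3:**
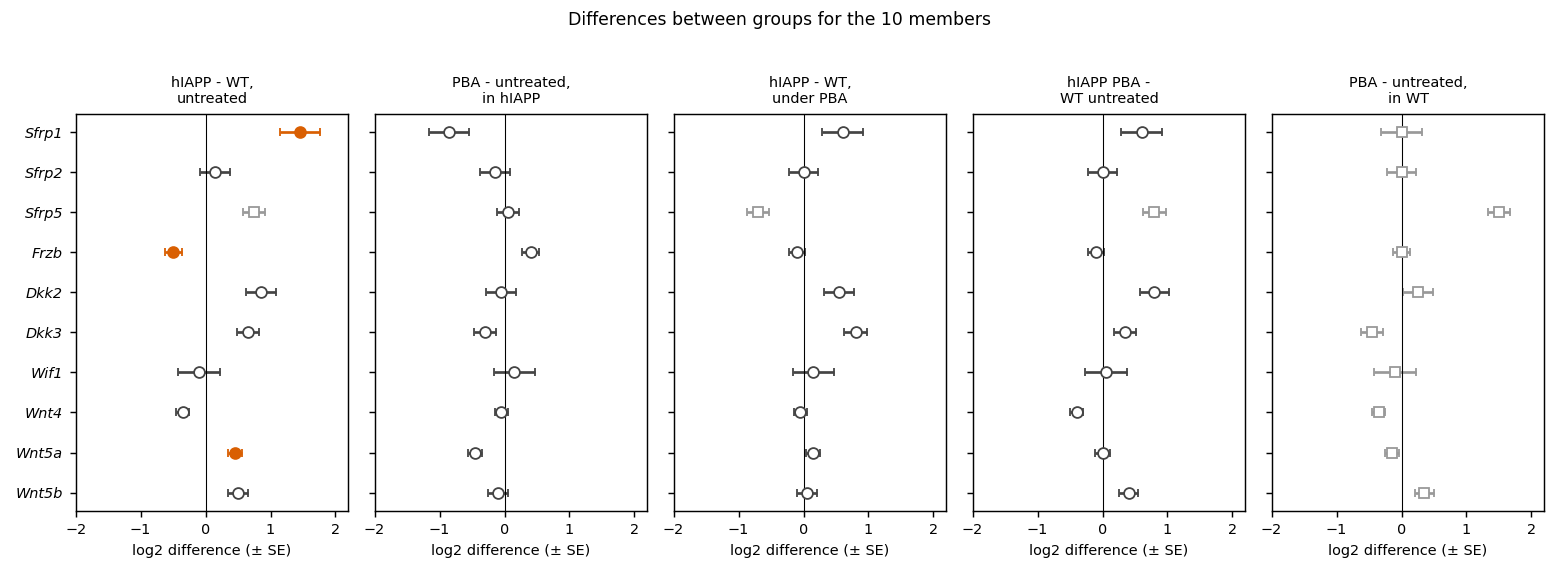
Log2 difference with its standard error for the 10 genes in the 5 comparisons, each panel titled by the groups subtracted; filled orange circles passed limma's adjusted threshold of 0.05, open circles were tested and did not pass, and open grey squares are values given without a test. The only filled points are Sfrp1 (1.45), Frzb (-0.50) and Wnt5a (0.45) in the first panel, and the Sfrp5 square at 1.5 stands farthest to the right among wild-type islets with PBA.

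In hIAPP islets PBA changed no member past the threshold (limma, 0 of 10, against 8.09% of all genes, 1.78% higher and 6.32% lower). The 3 members that differed between untreated groups each had the opposite sign here. Sfrp1 was -0.85 (SE 0.31, adjusted p = 0.1554), Frzb 0.40 (SE 0.13, adjusted p = 0.1075) and Wnt5a -0.45 (SE 0.11, adjusted p = 0.0504). The comparisons share the untreated hIAPP arrays, so the opposite signs are not separate evidence. Arrays did not overlap for Frzb, which was higher (22.6% of all genes), and for Sfrp1 and Wnt5a, which were lower (20.8%). Without untreated hIAPP 2 the Sfrp1 difference was -1.40. With arrays centred Frzb was at 0.60 and passed (limma adjusted p = 0.0224), where 2611 of all genes were called higher in place of 304. In these islets stellate and fibroblast markers fell in 14 of 18, macrophage markers in 13 of 15 and endothelial markers in 10 of 14. Beta-cell markers rose in 4 of 15. Acinar medians were 11.40 and 12.50 without PBA and 9.0 and 10.35 with it. Their part in these differences was not tested. Wnt4 was at 10.9 and 10.8 with PBA, a difference of -0.05 (95% interval -0.28 to 0.18), and Dkk2 differed by -0.05 (-0.59 to 0.49).

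Under PBA, none of the 9 members tested passed between hIAPP and wild-type islets (limma, where 0.421% of all genes were called, 0.322% higher). Dkk3 differed by 0.80 (SE 0.17, limma adjusted p = 0.1437) and Dkk2 by 0.55 (SE 0.23, limma adjusted p = 0.4110). Dkk3 was at 3.9 and 4.0 in PBA-treated wild-type and at 5.0 and 4.5 in PBA-treated hIAPP islets, across the background level. Arrays did not overlap for 4 members, all higher, where 30.4% of all genes did not overlap (15.6% higher). Sfrp1 was still 0.60 (SE 0.31) higher, with an interval of -0.13 to 1.33. The genes most like Dkk3 over the 8 arrays were Man2b1 (r = 0.981), Rassf2 (0.975) and Trem2 (0.971), the last a receptor gene of lipid-handling macrophages. Macrophage markers were higher in hIAPP islets under PBA in 9 of 15 members, with medians of 7.50 and 7.40 against 5.90 and 6.10 and summed signals of 12.59 and 12.47 against 11.37 and 11.31 (log2). From 2 to 3 of the 15 were at or below background on these arrays. Other lists differed too under PBA. Without overlap, 15 of 18 stellate and fibroblast markers were higher and none lower, and 16 of 18 acinar markers were lower and 1 higher. The part of these lists in the Dkk3 difference was not tested.

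PBA-treated hIAPP islets against untreated wild-type islets asks how far treated transgenic islets still differ. No member of the 9 passed (limma, where 0.368% of all genes were called). Wnt4 was 0.40 lower (SE 0.10, adjusted p = 0.1814), and its arrays did not overlap, as in 31.3% of all genes (16.0% lower). Frzb differed by -0.10 (95% interval -0.40 to 0.20) and Wnt5a by 0.00 (-0.26 to 0.26). Dkk2 was at 3.4 and 3.8 in untreated wild-type, 4.7 and 4.2 in untreated hIAPP and 4.6 and 4.2 in PBA-treated hIAPP islets, so that its hIAPP groups overlapped and both lay above untreated wild type by 0.80 to 0.85. Sfrp1, Dkk2 and Wnt5b were higher without overlap (15.3% of all genes). The genes most like Dkk2 were Nbl1 (r = 0.955), Stmn2 (0.948) and Sncg (0.946). None of 7 measured Schwann cell markers, genes of nerve-associated glia, passed in this comparison (limma), and 3 rose in untreated hIAPP islets. Their medians were 4.60 and 4.30 in untreated wild-type, 5.30 on both arrays in untreated hIAPP and 4.80 and 4.90 in PBA-treated hIAPP islets, with summed signals of 7.28 and 7.33, 8.24 and 8.48, and 7.72 and 7.83 (log2). From 2 to 4 of the 7 were at or below background on each array. Other lists differed too in treated hIAPP against untreated wild type. Without overlap, 12 of 18 stellate and fibroblast markers were higher and 2 lower, and 10 of 15 macrophage markers higher and 1 lower. Of 18 acinar markers 17 were lower and 1 higher. The part of these lists in the Dkk2 difference was not tested.

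In wild-type islets with PBA, where the set was chosen, 0.292% of all genes were called and the members carry no test. Arrays did not overlap for 2 members that were higher, Sfrp5 and Wnt5b (0.35), and for 3 that were lower, Dkk3 (-0.45), Wnt4 (-0.35) and Wnt5a (-0.15). Over all genes 28.5% did not overlap in either direction (13.6% higher, 14.9% lower). Sfrp5 was picked for its rise here, so the count of members is only a description. The macrophage markers, with a median difference of -0.55, were lower in the same arrays, and their part in these differences was not tested. Wnt4 was at 10.9 on both PBA-treated arrays against 11.3 and 11.2, while both hIAPP groups were at 10.8 to 10.9. Its second probe set was at 9.6 and 9.9 against 9.9 and 10.1, with a shared value. The second probe sets of Dkk3 (0.10) and Wnt5b (-0.10) had the opposite sign to the main ones and overlapped. Sfrp1, Sfrp2 and Frzb had means that differed by 0.00.

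The rest of the Wnt pathway was read from lists of 86 genes, of which 83 were measured and 41 were above background on at least 2 arrays. In untreated hIAPP against untreated wild-type islets, 5 rose and 4 fell, 10.8% of them, against 11.0% of all genes. The median of the 83 was 0.10. With arrays centred on their median 3 were higher and 16 lower. With PBA in hIAPP islets 2 rose and 4 fell, 7.23% against 8.09% of all genes, and centred 12 were higher and 3 lower. Under PBA none of the 83 passed (limma), where 0.421% of all genes were called. None passed in treated hIAPP against untreated wild type either (limma), where that share was 0.368%. At such shares a count of 0 says little about these genes.

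Among 17 measured receptor genes, Fzd4 rose in untreated hIAPP islets. This Frizzled receptor gene was at 5.7 and 5.8 in untreated wild-type and 7.1 and 6.8 in untreated hIAPP islets (1.20, SE 0.15, limma adjusted p = 0.0035). With PBA it was at 5.5 and 5.3 in hIAPP islets, a fall of -1.55 (SE 0.15, limma adjusted p = 0.0024), and at 5.5 and 5.8 in wild-type islets. Untreated hIAPP islets were the highest group, the wild-type groups shared a value, and treated hIAPP islets lay below untreated wild type without overlap. The rise kept its call in 6 of the 8 fits without 1 array and the fall in all 8. Endothelial markers, a cell type in which Fzd4 is known to act, had medians of 8.45 and 8.20 in untreated hIAPP islets and 6.85 to 7.35 in the other 3 groups, with 9 of 14 higher in untreated hIAPP islets and 10 of 14 lower with PBA. Their summed signal was 12.55 to 12.63 (log2) in untreated hIAPP islets and 11.93 to 12.02 elsewhere. None was at or below background on any array, and their part in the Fzd4 result was not tested. Fzd2 fell with PBA in hIAPP islets from 4.9 and 4.5 to 4.0 and 4.1 (-0.65, limma adjusted p = 0.0420), near background, and passed in none of the 8 fits without 1 array.

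Of 15 measured genes known as Wnt targets, Cd44 and Ccnd1 rose and Dact1 fell in untreated hIAPP islets. The other listed targets did not pass there, Axin2 (0.00) and Lef1 (0.10) among them. From 8 to 10 of the 15 were at or below background on each array. Cd44, an adhesion receptor gene that leukocytes also express, was at 7.5 and 7.3 in untreated wild-type and 9.1 and 9.0 in untreated hIAPP islets (1.65, SE 0.12, limma adjusted p = 5.1e-04). It was at 7.7 and 7.8 with PBA in hIAPP islets (-1.30, SE 0.12, limma adjusted p = 0.0021). Macrophage markers had medians of 8.90 and 8.50 in untreated hIAPP, 7.50 and 7.40 in PBA-treated hIAPP and 5.90 to 6.50 in wild-type islets. Their summed signal was 13.24 to 13.56, 12.47 to 12.59 and 11.31 to 11.71 (log2) in these islets, and their part in the Cd44 result was not tested. The cyclin gene Ccnd1 (0.50, limma adjusted p = 0.0350) kept its call in 2 of the 8 fits without 1 array and the Dvl-binding protein gene Dact1 (-0.55, limma adjusted p = 0.0177) in 4.

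Of 15 cytoplasmic and nuclear genes, the beta-catenin cofactor gene Bcl9 fell in untreated hIAPP islets, from 7.0 on both arrays to 6.2 on both (-0.80, SE 0.10, limma adjusted p = 0.0028). It was at 6.3 and 6.4 with PBA, so both hIAPP groups lay below the 6.9 to 7.0 of wild-type islets. Dvl1, a scaffold downstream of Frizzled, fell from 7.5 and 7.7 to 7.1 and 7.1 (-0.50, limma adjusted p = 0.0257) and rose with PBA to 7.6 on both hIAPP arrays (0.50, limma adjusted p = 0.0325). The fall kept its call in 3 of the 8 fits without 1 array and the rise in 2. Tcf7l1, a Tcf factor gene, rose by 0.55 (limma adjusted p = 0.0403) and passed in none of the 8 fits without 1 array.

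Among the other secreted antagonists, 9 measured, Igfbp4, an insulin-like growth factor binding protein gene that also binds Lrp co-receptors, rose in untreated hIAPP islets. It was at 9.6 and 8.4 in untreated wild-type and 10.5 and 10.5 in untreated hIAPP islets (1.5, SE 0.36, limma adjusted p = 0.0403), and at 8.5 and 8.8 with PBA in hIAPP islets (-1.85, SE 0.36, limma adjusted p = 0.0237). The rise was 0.90 without untreated wild type 2 and 2.10 without untreated wild type 1, and 1 of the 8 fits without 1 array kept the call. The fall kept it in 2 of 8. Of 16 other ligand genes 1 was above background on at least 2 arrays, and the one called, Wnt3a (-0.55, limma adjusted p = 0.0223), went from 4.6 and 4.7 to 4.2 and 4.0, with 1 of these values just above background, and kept its call in 4 of the 8 fits without 1 array. Porcn, whose enzyme adds the lipid to Wnt proteins, rose with PBA in hIAPP islets from 6.3 on both arrays to 6.7 and 6.9 (0.50, limma adjusted p = 0.0467), and passed in none of the 8 fits without 1 array. None of the 9 R-spondin, Lgr and Znrf3 or Rnf43 genes passed in any tested comparison (limma).

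**Figure D4:**
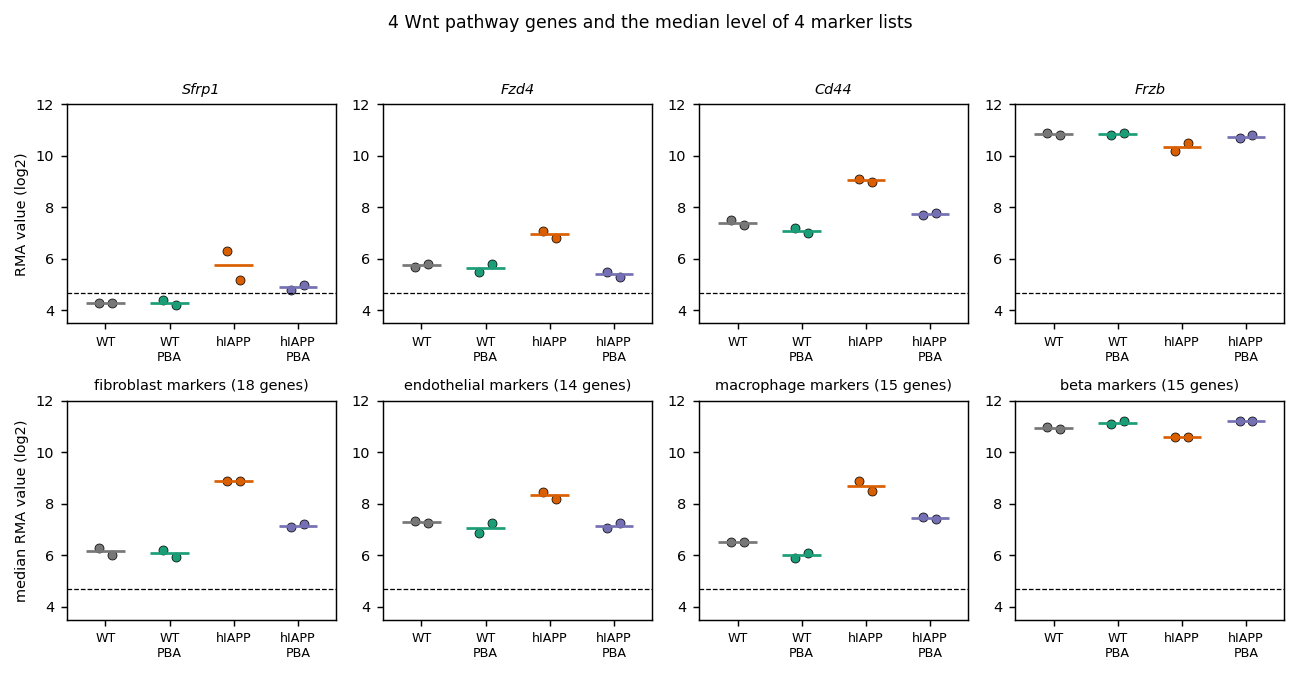
RMA value (log2) by group for Sfrp1, Fzd4, Cd44 and Frzb (upper row) and the median of the stellate cell and fibroblast (titled fibroblast), endothelial, macrophage and beta-cell marker lists (lower row); points are arrays, bars are means of 2 arrays, and the dashed line is the background of 4.68. Untreated hIAPP islets are highest for Sfrp1, Fzd4 and Cd44 and for the first 3 lists, at 8.90 on both arrays for the fibroblast list, and lowest for Frzb and for the beta-cell list, at 10.60 on both arrays.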

How the data were processed

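RNA of islets was measured on 8 Affymetrix arrays. The deposited values are log2 values that the authors made with RMA in the affy package, per the submitters' processing notes, rounded to 1 decimal. RMA subtracts background, equalises the distributions of the arrays and summarises each probe set. They were used as deposited. Of 45141 probe sets, 28898 name 1 gene in GEO's platform annotation (551 several, 15588 none, 104 controls), and symbols were updated through RefSeq (17055 of 17097 matched). One limma 3.58.1 fit (R 4.3.3) of the 4 group means over all 8 arrays had 4 residual and 3.27 prior degrees of freedom. Tests were two-sided, adjusted by Benjamini-Hochberg over 17097 genes at 0.05, and tested on simulated data. Intervals are 95% intervals of the fit. With 2 arrays in each group, precision is limited by their number.

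All members are named, with the up to 4 called genes of largest change of each pathway list per comparison, and the 3 best-correlated genes of members spanning at least 1 log2 unit (predicted genes and those without a RefSeq match skipped). The members, lists and tests were chosen with earlier results of these data known. Alternatives were a dim-gene filter, averaged probe sets, another variance moderation, centring, array weights, a replicate block, an acinar covariate, pairwise fits and left-out arrays. Python 3.11.15 was used with pandas 2.3.3 (tables) and matplotlib 3.10.9 (plots). The transgene's own transcript was not analysed here.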

Additional observations from a re-analysis of the deposited data

Results flagged for a closer look

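Sfrp5 was higher in hIAPP than in wild-type islets without PBA, at 6.8 and 6.5 against 5.9 on both arrays, and lower under PBA, at 6.6 and 6.8 against 7.6 and 7.2 (-0.70). In the main probe set every array of 1 comparison lay on the opposite side to the other, which singled the gene out. Sfrp5 was chosen for the rise with PBA in wild-type islets. Any hIAPP level between the wild-type groups then gives this reversal, so it largely restates the choice. In the second probe set the differences were -0.05 without PBA and -0.4 under PBA, with overlapping arrays in both, and did not reverse. The difference between the comparisons was not tested because the gene was chosen on these arrays.

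Ccnd1 was at 9.4 and 9.6 with PBA in wild-type islets against 9.1 and 8.9 without it, and at 9.4 on both arrays with PBA in hIAPP islets against 9.5 on both without it (-0.10). The responses were opposite in every array, the difference between them was not tested, and the one in hIAPP islets is the size of 1 rounding step of the table.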

How the results depend on the processing

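For the transgene without PBA, 3 members were called. The count was 0 with only the 4 arrays of the groups, 5 with trended and robust moderation and 6 with array weights. Over all genes the count of 1874 was 484, 2700 and 2306 in the same fits. The members called were not always the same: Dkk3 and Wnt4 were called and Wnt5a was left out by the filter on dim genes, which kept 5 members. For PBA in hIAPP islets no member was called. With trended and robust moderation 2 were (Sfrp1 and Frzb), with centred arrays 1 (Frzb) and with array weights 1 (Wnt5a). Over all genes the count of 1384 was 2295, 3499 and 1529 in the same fits. For treated hIAPP against untreated wild type the count of 0 was 1 with trended and robust moderation (Wnt4). Over all genes the count went from 63 to 367 there. For the transgene under PBA it was 0 in every alternative with all arrays of both groups, where 0 to 348 of all genes were called. Sfrp5 with PBA in wild-type islets was 1.15 with averaged probe sets and 1.30 to 1.70 without 1 array. All 303 refitted fold changes of called genes kept their direction, and 160 kept the call. Pairwise fits, other moderation, the dim-gene filter, the replicate block and leaving out an uninvolved array do not change a difference of group means. The shared direction was thus largely fixed in advance and says little about stability. The cause of the shifts in the counts was not tested.

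The alternatives for the other Wnt pathway genes were chosen after seeing the data. For the transgene without PBA their count was 9. It was 4 with only the 4 arrays of the groups, 14 with averaged probe sets, 19 centred and 14 with array weights. Over all genes the count of 1874 was 484, 2021, 4347 and 2306 in these fits. For PBA in hIAPP islets their count was 6. It was 0 with only the 4 arrays, 15 centred, 3 with the replicate block and 1 with the acinar covariate. Over all genes the count of 1384 was 14, 3499, 1027 and 81 in these fits. Acinar medians did not overlap between these groups, so the acinar fit cannot separate PBA from the acinar list. For the transgene under PBA the count of 0 was 1 without dim genes and 2 with trended and robust moderation. Over all genes in those fits 98 and 348 were called. For treated hIAPP against untreated wild type it was 1, 3 and, with array weights, 1, against 85, 367 and 87 over all genes. Arrays of the same replicate number did not deviate together (correlations of -0.14 to 0.10 over 6 pairs of groups), and with the replicate block 2 members passed for the transgene, Sfrp1 and Wnt5a, while Frzb had an adjusted p of 0.0666. Rounding and signal near background limit the dim members.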
